A study of Mus musculus with 6 samples.

Results

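The T cell receptor genes measured here were the variable, diversity, joining and constant rows of the deposited gene table that held at least 1 expected count summed over all libraries. Of 226 such rows in a table of 55573 genes, 131 met this rule: 124 variable segments and 7 constant genes. By chain, 94 belonged to alpha, 23 to beta, 9 to gamma and 5 to delta. RNA-seq libraries came from 3 Abcc4-/- and 3 WT mouse samples labelled as megakaryocytes, the marrow cells that shed platelets. Sample titles also carry CD41, the integrin subunit encoded by Itga2b. No treatment, age or strain is given in the sources used here, nor how the cells were selected, and nothing says that the samples of a genotype came from separate animals. Abcc4 encodes a membrane transporter that exports cyclic nucleotides and thiopurine drugs.

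T cells carry a receptor made either of an alpha and a beta chain or of a gamma and a delta chain. Each chain gene is assembled in the developing lymphocyte by joining 1 variable segment to a joining segment, with a diversity segment between them in beta and delta, and the joined exon is then spliced to a constant gene. Rearranged receptor genes are typical of T cells, while unrearranged constant regions can also be transcribed in other lymphocytes, and gamma transcripts can occur in alpha-beta T cells. Counts per gene do not show whether a counted segment was rearranged.

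The libraries held 67009967, 99294510 and 80379505 counts in Abcc4-/- and 55123551, 50440283 and 54017861 counts in WT. The T cell receptor genes took 0.00319% ± 0.000444 of all counts in Abcc4-/- and 0.00154% ± 0.00038 in WT (SD, n = 3 each), so most single segments rest on few counts. Values in CPM, the counts of a gene relative to those of its library, are scaled to library sizes adjusted by the trimmed mean of M-values (TMM), and a count of 3 corresponds to 0.0304 to 0.0591 CPM. Abcc4 itself was at 60.1, 60.5 and 62.3 CPM in Abcc4-/- and 74.2, 71.8 and 75.7 CPM in WT, a decrease of 1.21-fold (adjusted p = 0.0026). A count over the whole gene does not show which part of it the allele removes. The alpha and delta genes share a locus on chr14:52427928-54224206, which lies 64.3 Mb from Abcc4 on that chromosome. The beta locus is on chr6:40891229-41558452 and the gamma locus on chr13:19178024-19352756 (all GRCm38).

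In summed CPM, receptor transcripts of all 4 chains were more abundant in Abcc4-/-, about 2-fold in each. The beta total was 19.98, 15.03 and 16.6 CPM in Abcc4-/- against 6.95, 11.01 and 7.68 CPM in WT. The alpha total was 9.01, 6.72 and 6.86 CPM in Abcc4-/- against 3.15, 4.59 and 2.90 CPM in WT. The gamma total was 4.78, 3.94 and 4.35 CPM in Abcc4-/- against 1.36, 2.64 and 1.73 CPM in WT. In these 3 chains every Abcc4-/- library lay above every WT library, and WT replicate 2 was the highest of its genotype. The delta total was 3.29, 2.37 and 3.07 CPM in Abcc4-/- against 1.27, 1.38 and 1.305 CPM in WT, again without overlap. The ratios of the means were 2.12 for alpha, 2.01 for beta, 2.28 for gamma and 2.21 for delta. They are given as descriptions, since sums over genes chosen by their counts get no test. In these bulk samples, more cells of a type and more RNA per cell cannot be told apart.

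The ratios were larger for the constant genes than for the variable segments, except in the gamma chain. Constant genes alone gave ratios of 2.57 for alpha, 2.11 for beta, 2.11 for gamma and 2.58 for delta. Variable segments alone gave 1.55 for alpha, 1.75 for beta, 4.39 for gamma and 1.07 for delta. The delta variable segments summed to 0.352 ± 0.0617 CPM in Abcc4-/- and 0.328 ± 0.131 CPM in WT, with overlapping libraries. The gamma variable segments summed to 0.613 ± 0.101 CPM in Abcc4-/- and 0.14 ± 0.0857 CPM in WT. Summed as TPM, a length-scaled abundance that weights short segments more, the delta ratio was 1.22. Variable segments held 32.1% ± 4.9 of the alpha counts in Abcc4-/- and 44.6% ± 8.57 in WT, and 14.1% ± 2.12 of the gamma counts in Abcc4-/- and 7.07% ± 2.48 in WT.

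**Figure D1:**
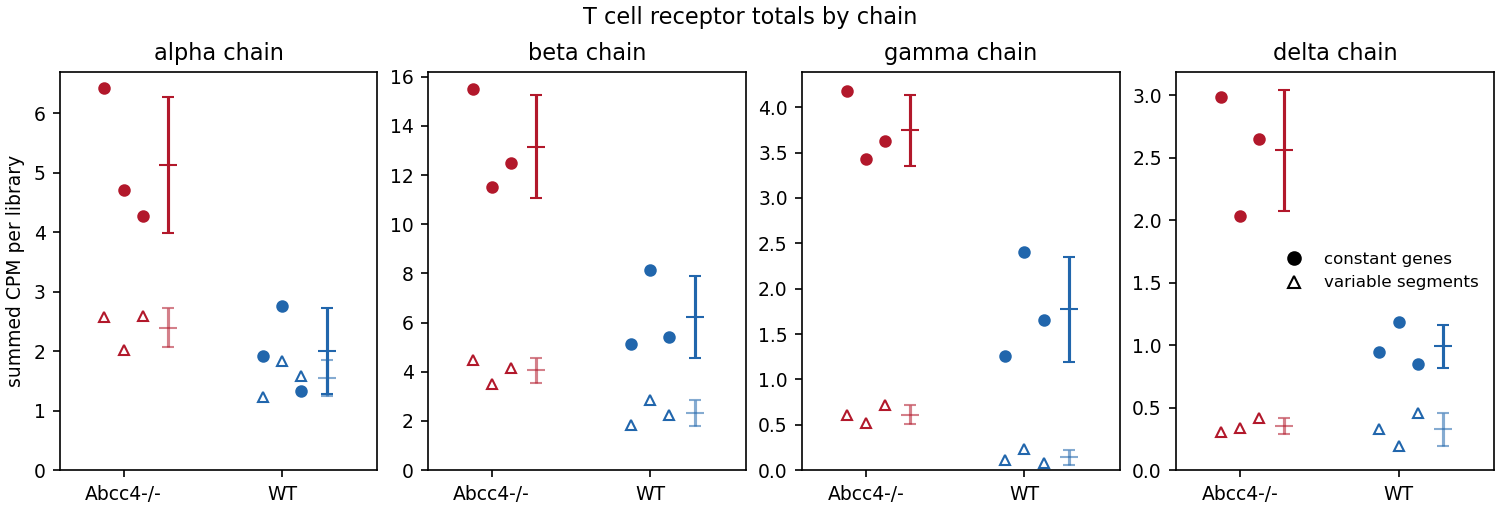
Summed CPM per library of the constant genes (filled circles) and the variable segments (open triangles) of each chain, with Abcc4-/- in red and WT in blue; bars show the mean and SD over 3 libraries and the scale differs between panels. Constant gene sums do not overlap between genotypes in any chain, while the delta variable segments overlap around 0.352 CPM in Abcc4-/- and 0.328 CPM in WT.

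Across the whole table, 16493 genes passed the filter on low counts and entered the edgeR quasi-likelihood test, with Benjamini-Hochberg adjustment over all of them and a threshold of 0.05. Of these genes, 8.61% were called higher in Abcc4-/- and 8.68% lower. Of the 131 receptor genes, 16 were tested; 8 were called higher and 0 lower. The 8 were 6 of the 7 constant genes and 2 of the 9 tested variable segments. The median log2 fold change was 0.93 over the 16, against 0.001 over all genes tested. Among the 16, Trbv29, Trgv2, Trbv13-1 and Trbv12-1 passed the filter with fewer than 3 WT libraries at its level, so their entry depended on the Abcc4-/- libraries. The count called higher was 5 without WT replicate 1 and 10 without WT replicate 2.

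**Figure D2:**
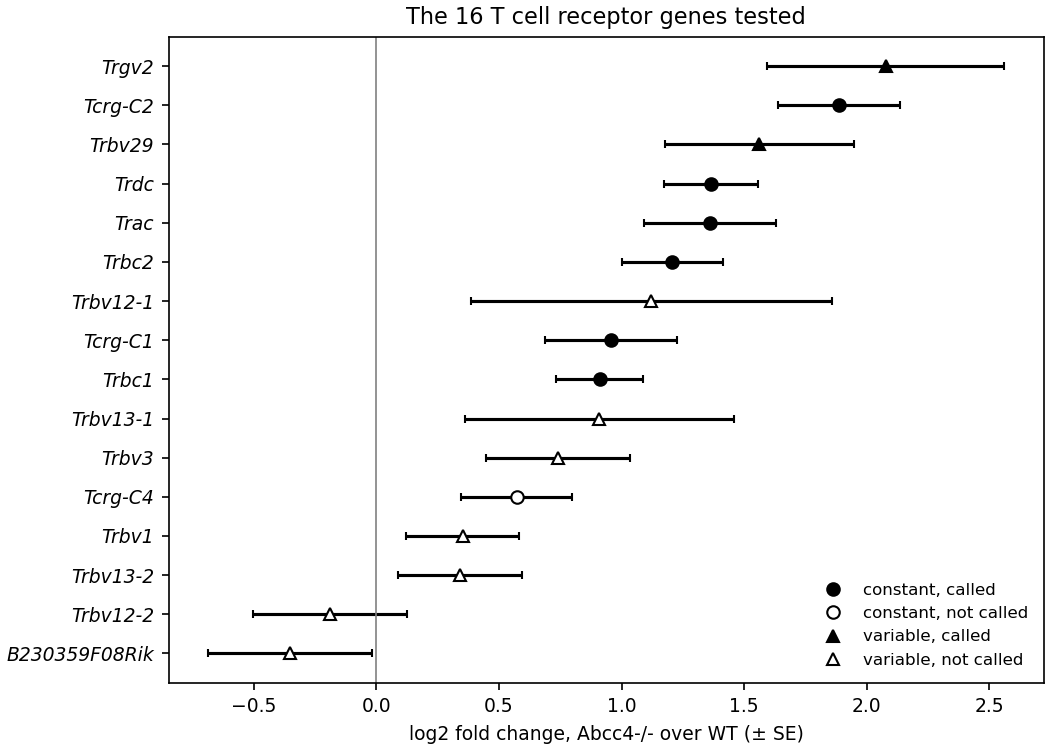
Log2 fold change (Abcc4-/- over WT) with its SE for the 16 receptor genes that were tested; circles are constant genes, triangles variable segments, and filled symbols passed an adjusted p of 0.05. Trgv2 and Tcrg-C2 have the highest values, 2.08 and 1.89, and Trbv12-2 and B230359F08Rik lie below 0.

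The beta constant genes Trbc1 and Trbc2 encode the membrane-anchored end of the beta chain and were the most abundant receptor genes. Trbc2 (chr6:41546730-41548352) was at 9.43, 6.66 and 7.41 CPM in Abcc4-/- and 2.95, 4.48 and 2.76 CPM in WT. It rose by a log2 fold change of 1.21 (SE 0.21, adjusted p = 0.00667). Trbc1 (chr6:41538218-41539881) was at 6.07, 4.85 and 5.06 CPM in Abcc4-/- and 2.17, 3.66 and 2.67 CPM in WT. It rose by a log2 fold change of 0.91 (SE 0.18, adjusted p = 0.00687). Neither gene's libraries overlapped between the genotypes.

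The 2 beta constant genes can share reads, so their separate counts rest on the bases where they differ. Their first coding exons of 375 bases differ at 1 base, at position 260 of the coding sequence, and the other 143 coding bases differ at 22. The noncoding bases of the 2 transcripts, which may also differ, were not compared. Those 143 coding bases span the later coding exons (chr6:41547610-41548178 for Trbc2 and chr6:41539114-41539662 for Trbc1, plus strand, GRCm38, from the GENCODE transcripts). They show where reads from this part can tell the genes apart, and capitals mark the bases that differ.
Trbc2: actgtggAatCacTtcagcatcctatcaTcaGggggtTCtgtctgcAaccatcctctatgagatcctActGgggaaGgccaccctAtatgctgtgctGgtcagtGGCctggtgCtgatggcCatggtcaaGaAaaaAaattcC
Trbc1: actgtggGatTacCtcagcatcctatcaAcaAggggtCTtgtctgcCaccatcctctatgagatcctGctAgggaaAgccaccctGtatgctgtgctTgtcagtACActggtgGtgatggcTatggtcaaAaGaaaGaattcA
Trbc2 held 59.4% ± 1.5 of the beta constant counts in Abcc4-/- and 54.5% ± 3.44 in WT. The libraries did not overlap, and an exact two-sided permutation test gave p = 0.1, the smallest that 3 against 3 allows (0.133 adjusted over 4 shares).

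Trac, the only alpha constant gene (chr14:54220521-54224206), was at 6.43, 4.70 and 4.27 CPM in Abcc4-/- and 1.91, 2.76 and 1.32 CPM in WT. It rose by a log2 fold change of 1.36 (SE 0.27, adjusted p = 0.0139). Without WT replicate 1 its adjusted p was 0.0654. Trdc, the delta constant gene (chr14:54142851-54148868), was at 2.99, 2.04 and 2.65 CPM in Abcc4-/- and 0.946, 1.18 and 0.845 CPM in WT. It rose by a log2 fold change of 1.36 (SE 0.19, adjusted p = 0.000803), and its libraries did not overlap. The 3' end of Trdc shares 207 bases with Trdv5, a delta variable segment on the opposite strand; the library kit keeps strand and the tables are marked as stranded.

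Of the gamma constant genes, Tcrg-C2 rose most in size of log2 fold change, Tcrg-C1 rose, and Tcrg-C4 did not pass the test. Each lies in its own cassette with joining and variable segments. Tcrg-C2 (chr13:19304649-19307551, minus strand) was at 1.57, 1.18 and 1.25 CPM in Abcc4-/- and 0.309, 0.499 and 0.276 CPM in WT. Its log2 fold change was 1.89 (SE 0.25, adjusted p = 0.000531). Tcrg-C1 (chr13:19214103-19217024, plus strand) was at 1.36, 1.29 and 1.38 CPM in Abcc4-/- and 0.382, 0.979 and 0.717 CPM in WT, with a log2 fold change of 0.96 (SE 0.27, adjusted p = 0.033). That call was lost without WT replicate 1 (adjusted p = 0.0604), without WT replicate 3 (0.0807), and without Abcc4-/- replicate 1 (0.1), 2 (0.0807) or 3 (0.0701). Tcrg-C4 (chr13:19344558-19352756, plus strand) was at 1.25, 0.952 and 1.003 CPM in Abcc4-/- and 0.564, 0.926 and 0.661 CPM in WT. Its log2 fold change was 0.57 (SE 0.23, adjusted p = 0.109), although the libraries did not overlap, and without WT replicate 2 the adjusted p was 0.0485.

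**Figure D3:**
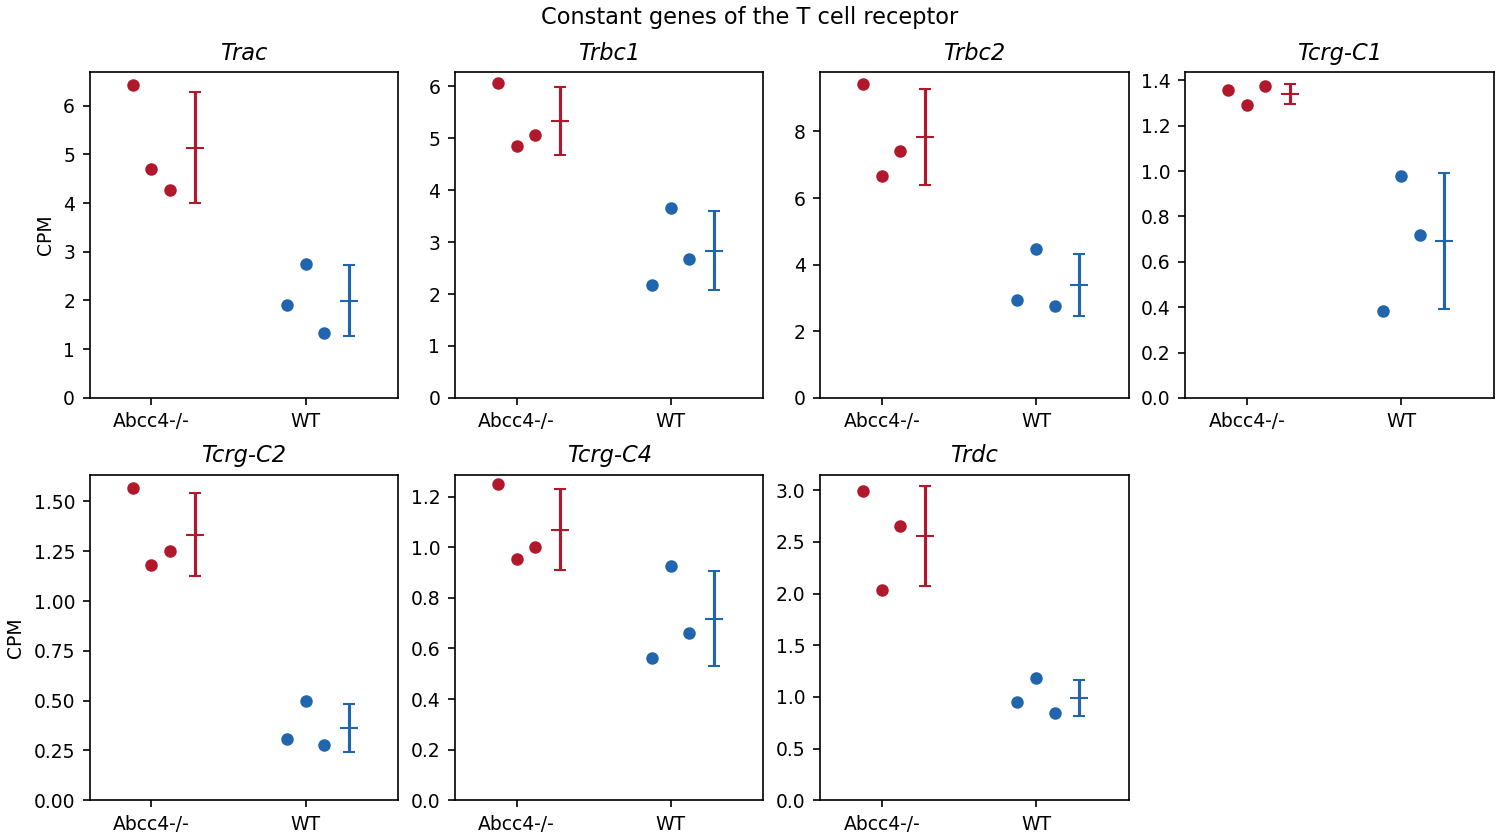
CPM of the 7 constant genes in each library, Abcc4-/- in red and WT in blue, with the mean and SD over 3 libraries; each panel has its own scale from 0. The genotypes do not overlap in any of the 7, and the gap is narrowest in Tcrg-C4.

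The gamma constant genes were also compared as proportions of their sum, which for Tcrg-C2 and Tcrg-C4 did not overlap between genotypes. Tcrg-C2 made up 37.5%, 34.5% and 34.5% of the gamma constant counts in Abcc4-/- against 24.6%, 20.8% and 16.7% in WT. Tcrg-C4 made up 30.0%, 27.8% and 27.7% in Abcc4-/- against 44.9%, 38.5% and 40.0% in WT. Both comparisons gave an exact two-sided permutation p of 0.1, the smallest possible (0.133 adjusted over 4 shares). The share of Tcrg-C1 overlapped, at 36.0% ± 3.07 in Abcc4-/- and 38.2% ± 6.82 in WT (exact permutation p = 0.6, n = 3 each). Of the shares given in this text, only these 3 and that of Trbc2 were tested, and they were not among the planned tests. The gamma shares are parts of the same whole, so they are not separate tests.

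**Figure D4:**
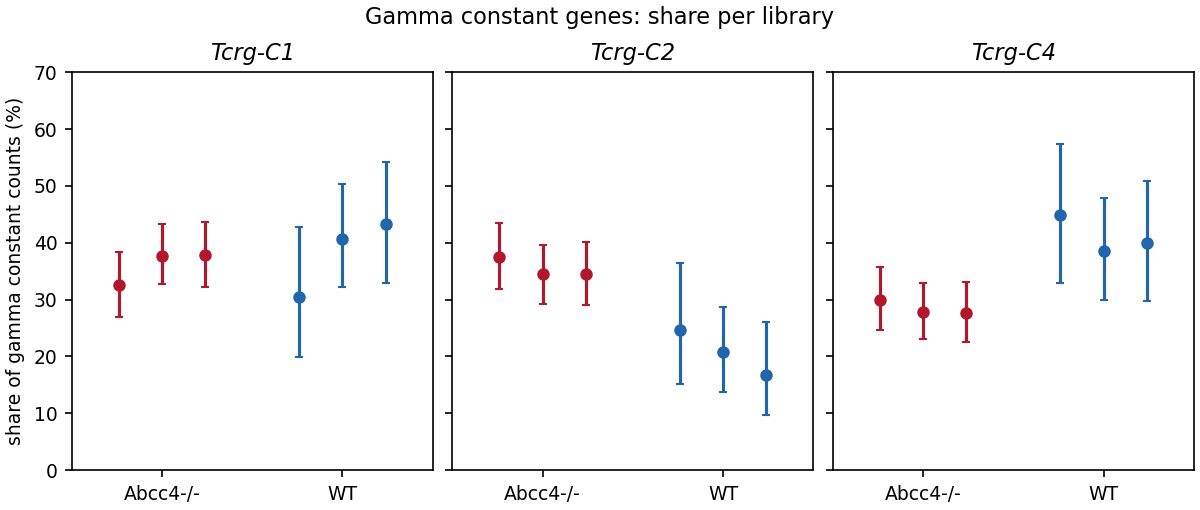
Share of the gamma constant counts held by Tcrg-C1, Tcrg-C2 and Tcrg-C4 in each library, Abcc4-/- in red and WT in blue; bars are exact 95% binomial intervals, which cover counting error only. Tcrg-C2 lies at 34.5% to 37.5% in Abcc4-/- and 16.7% to 24.6% in WT, and Tcrg-C4 runs the other way.

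Tcrg-C1 and Tcrg-C2 differ at 9 of the 330 bases of their first coding exon, and Tcrg-C4 differs from Tcrg-C1 at 59. Their expected counts were fractional in some libraries, which means that reads were divided between rows, so the split between Tcrg-C1 and Tcrg-C2 is less certain than their sum. Tcrg-C3, the remaining constant row, was at 0 in all libraries.

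Levels between genes can be compared only per length. Among the constant genes the order by TPM in Abcc4-/- was Trbc2 (20.2 ± 3.33 TPM), Trbc1 (13.1 ± 1.24 TPM), Trac (9.38 ± 2.57 TPM), Tcrg-C2 (2.38 ± 0.325 TPM), Tcrg-C1 (2.37 ± 0.103 TPM), Tcrg-C4 (1.74 ± 0.227 TPM) and Trdc (0.897 ± 0.164 TPM). In WT it was Trbc2 (9.16 ± 2.28 TPM), Trbc1 (7.24 ± 1.71 TPM), Trac (4.49 ± 1.41 TPM), Tcrg-C1 (1.28 ± 0.542 TPM), Tcrg-C4 (1.23 ± 0.299 TPM), Tcrg-C2 (0.68 ± 0.209 TPM) and Trdc (0.367 ± 0.0569 TPM). Tcrg-C1 and Tcrg-C2 in Abcc4-/-, and Tcrg-C1 and Tcrg-C4 in WT, were neighbours within their spread. Of all constant gene counts, beta took 53.5% ± 0.571 in Abcc4-/- and 56.8% ± 1.69 in WT, without overlap. The shares of the other chains overlapped: alpha took 20.8% ± 1.94 in Abcc4-/- and 18.0% ± 3.32 in WT, gamma 15.3% ± 0.814 in Abcc4-/- and 16.03% ± 2.2 in WT, and delta 10.4% ± 1.06 in Abcc4-/- and 9.19% ± 1.05 in WT.

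No diversity or joining segment met the rule. All 4 diversity rows (Trbd1, Trbd2, Trdd1 and Trdd2) and all 70 joining rows were at 0 counts in all 6 libraries. These rows are 11 to 16 bases long for diversity and 46 to 66 for joining segments, while the variable segments that were counted are 328 to 595 bases and the constant genes 692 to 3865. Among all other rows of the table under 70 bases, 6 of 667 (0.9%) held a count, against 28.5% of rows of 300 to 600 bases. Whether length bears on the counts of 0 in the receptor rows was not tested. The beta diversity segments on chromosome 6, Trdd2 on chromosome 14 and 1 joining segment are printed as examples of such rows.
Trbd1: gggacagggggc
Trbd2: gggactgggggggc
Trdd2: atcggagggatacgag
Trbj1-1: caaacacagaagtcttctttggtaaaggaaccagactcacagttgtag
They lie at chr6:41533201-41533212, chr6:41542163-41542176, chr14:54122226-54122241 and chr6:41533864-41533911, all on the plus strand of GRCm38.

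Most variable segments were at the edge of detection. Of the 131 receptor genes, 78 had under 10 summed counts, 24 were at 0 in every WT library and 5 at 0 in every Abcc4-/- library. Receptor genes with at least 1 count numbered 101, 102 and 99 in Abcc4-/- and 60, 65 and 67 in WT. Scaled to the smallest library total, the expected numbers were 92.1, 81.8 and 89.9 in Abcc4-/- and 58.3, 65.0 and 65.0 in WT, so the genotypes stayed apart at equal depth. For alpha alone the numbers were 67, 66 and 63 in Abcc4-/- and 33, 37 and 39 in WT, of 94. At the threshold of the rule, 14 rows had exactly 1 summed count, among them Trav6-2, Tcrg-V7 and Trav3-1, and 4 rows (Trav4d-3, Trav9n-2, Trav4n-3 and Trav9d-2) lay outside it at 0.5. The other 91 rows were at 0.

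Over all 131 receptor genes, the libraries of the genotypes did not overlap in 29 that were higher in Abcc4-/- and 1 that was lower, and they overlapped in 101. Among the 26747 genes of the table with at least 1 summed expected count before rounding, 13.1% lay higher without overlap and 13.2% lower. The 29 comprised all 7 constant genes, 10 of the 21 beta variable segments, 8 of the 93 alpha, 3 of the 6 gamma and 1 of the 4 delta variable segments. Some of the 29, among them Trbv20, Trbv23, Trav21-dv12 and Trav7-1, were at 0 in every WT library. Such rows met the rule through the Abcc4-/- libraries alone. Trav3d-3 and Trav3n-3, also among the 29, have identical sequences and equal counts, so they are not separate observations. These segments were named after their values were seen. Of the 46 variable segments with at least 10 summed counts, 38 had the higher mean CPM in Abcc4-/- and 8 the lower. The median ratio of means was 2.13 over the beta segments of that group, without Trbv20, which was at 0 in WT, and 1.25 over its alpha segments. The cut was on counts summed over all libraries, and the Abcc4-/- libraries were deeper. Rows such as Trbv20 (17 counts in Abcc4-/- and 0 in WT) and Trbv17 (29 and 1) reached it through Abcc4-/-. The cut can therefore tilt the tally and the medians towards Abcc4-/-. No such tally was made over all genes, and identical rows such as Trav9d-3 and Trav9n-3 were counted separately.

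The variable segments of the beta chain differed in how far the genotypes lay apart. Trbv1 was at 0.558, 0.527 and 0.644 CPM in Abcc4-/- and 0.4, 0.512 and 0.441 CPM in WT, a log2 fold change of 0.35 (SE 0.23, adjusted p = 0.33). Trbv13-2, a segment of the Vbeta8 family, was at 0.498, 0.618 and 0.57 CPM in Abcc4-/- and 0.346, 0.572 and 0.423 CPM in WT, with a log2 fold change of 0.34 (SE 0.25, adjusted p = 0.395). Trbv3 was at 0.423, 0.324 and 0.359 CPM in Abcc4-/- and 0.255, 0.177 and 0.221 CPM in WT, with a log2 fold change of 0.74 (SE 0.29, adjusted p = 0.11). These beta segments had the highest mean CPM over all 6 libraries, and none passed the test. Per length, Trbv13-2 and Trbv1 also led in both genotypes, but Trbv3 was at 1.79 ± 0.22 TPM in Abcc4-/- and 1.11 ± 0.221 TPM in WT, below Trbv29 in Abcc4-/- (2.34 ± 0.252 TPM) and below Trbv12-2 in WT (1.76 ± 0.0513 TPM). Together they held 37.5% ± 4.38 of the beta variable counts in Abcc4-/- and 48.8% ± 5.3 in WT.

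Trbv29, by contrast, was called. It had 21, 26 and 26 counts in Abcc4-/- and 3, 7 and 6 counts in WT, or 0.301 ± 0.0324 CPM and 0.101 ± 0.0425 CPM in that order. Its log2 fold change was 1.56 (SE 0.38, adjusted p = 0.0168), and the call was lost when either WT replicate 1 or Abcc4-/- replicate 1 was left out (adjusted p = 0.0581 and 0.052) and with DESeq2 (0.0603). With every gene of at least 1 summed count kept in the fit, 15 of the 131 receptor genes were called higher and 0 lower. Of the 26780 genes with such a sum after rounding to whole counts, 6.28% were called higher. Besides the 8 above, the receptor genes called in this fit were Trbv19, Trbv17, Trbv20, Tcrg-V4, Tcrg-V1, Trav11d and Trav12-2, named after their values were seen. None of these added segments passed the default filter. Their summed WT counts ran from 0 (Trbv20) to 8 (Tcrg-V4), and Trbv20 entered this fit through the Abcc4-/- libraries alone.

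**Figure D5:**
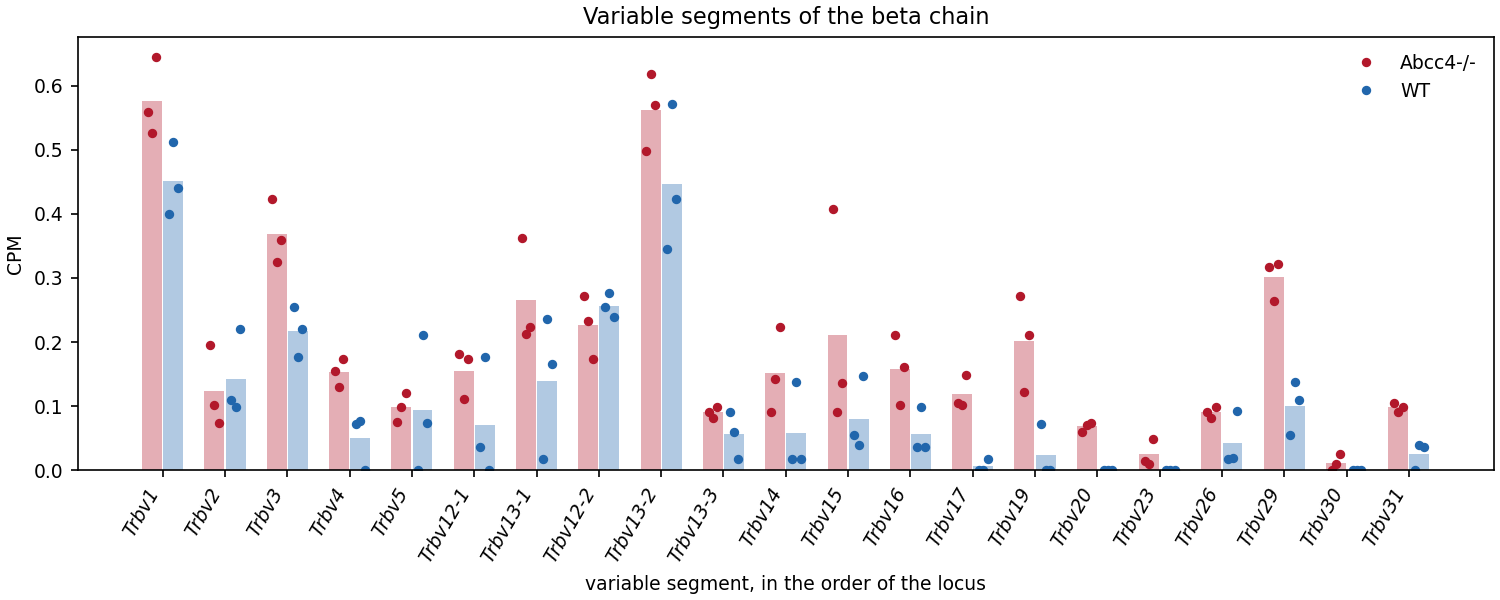
CPM of the 21 beta variable segments that met the rule, in the order of the locus; bars are means over 3 libraries and points single libraries, Abcc4-/- in red and WT in blue. Trbv1 and Trbv13-2 have the highest mean CPM in both genotypes, and Trbv29 shows 0.301 CPM in Abcc4-/- and 0.101 CPM in WT.

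Several of these segments had next to no count in WT. Trbv20 had 4, 7 and 6 counts in Abcc4-/- and 0 in each WT library, which is at least 1.22-fold higher against a floor of 3 counts per library. Trbv17 had 7, 10 and 12 counts in Abcc4-/- and 0, 0 and 1 in WT, a ratio of 18.9 with a counting interval of 3.13 to 772. Trbv19 had 18, 12 and 17 counts in Abcc4-/- and 4, 0 and 0 in WT. The interval is exact and covers counting error only.

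As sums over a chain, the gamma variable segments had the largest ratio between the genotypes, although single beta and alpha segments had larger ones. Trgv2 (chr13:19336573-19337167, minus strand) had 20, 25 and 21 counts in Abcc4-/- and 3, 6 and 1 in WT. It rose by a log2 fold change of 2.08 (SE 0.48, adjusted p = 0.0129), which was 2.83 without WT replicate 2. It lies 29.0 kb from Tcrg-C2 on the same strand. Tcrg-V4 had 13, 14 and 16 counts in Abcc4-/- and 3, 3 and 2 in WT, and lies 28.6 kb from Tcrg-C1 on the plus strand. Tcrg-V1 had 6, 9 and 15 counts in Abcc4-/- and 0, 3 and 1 in WT, and lies 4.1 kb from Tcrg-C4 on the plus strand. None of the libraries of these 3 segments overlapped between the genotypes.

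The alpha variable row with the highest mean CPM over all 6 libraries was B230359F08Rik, which RefSeq lists as Trav13-5. It had 10, 20 and 16 counts in Abcc4-/- and 10, 14 and 14 in WT, with a log2 fold change of -0.35 (SE 0.33, adjusted p = 0.523). Trav13-4-dv7, a segment that can join to alpha or delta, was the 1 gene whose libraries lay lower in Abcc4-/-, at 0.0604, 0.0912 and 0.0436 CPM against 0.109, 0.256 and 0.123 CPM in WT, and it did not pass the filter on low counts. Trav11d, a relative of the segment used by the invariant receptor of NKT cells, had 10, 21 and 12 counts in Abcc4-/- and 1, 3 and 0 in WT. Trav12-2 had 15, 11 and 6 counts in Abcc4-/- and 2, 2 and 1 in WT. The alpha locus holds duplicated segments that counting cannot separate. In all, 16 pairs of receptor rows shared a reference transcript of identical sequence. In 15 pairs both rows had the same value in every library (within 0.011 counts), for example Trav9d-3 and Trav9n-3. In the remaining pair, Trav15n-1 and Trav15d-1-dv6d-1, the shared transcript is 352 bases long, and Trav15d-1-dv6d-1 also has one of 418.

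In delta no variable segment was tested. Trdv2-2 had 7, 18 and 13 counts in Abcc4-/- and 9, 8 and 17 in WT, with overlapping libraries. Trdv4 had 8, 9 and 6 counts in Abcc4-/- and 6, 1 and 6 in WT. Trdv5 had 4, 4 and 8 counts in Abcc4-/- and 2, 0 and 1 in WT.

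A variable segment ends a few bases after the codon of its conserved cysteine, where the joined junction begins, and the ends of 11 segments are printed to show how these differ: those called in either fit, plus Trbv13-2 and Trbv12-2, which were not. They are the last 45 coding bases in the GENCODE transcripts (GRCm38), with the cysteine codon in capitals.
Trbv29: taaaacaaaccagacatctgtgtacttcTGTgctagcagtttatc
Trbv17: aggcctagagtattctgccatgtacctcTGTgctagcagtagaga
Trbv19: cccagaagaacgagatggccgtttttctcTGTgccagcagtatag
Trbv20: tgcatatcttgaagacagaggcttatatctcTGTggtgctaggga
Trbv13-2: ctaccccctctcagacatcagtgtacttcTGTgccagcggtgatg
Trbv12-2: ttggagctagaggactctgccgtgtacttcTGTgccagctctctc
Trgv2: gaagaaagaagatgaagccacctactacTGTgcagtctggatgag
Tcrg-V1: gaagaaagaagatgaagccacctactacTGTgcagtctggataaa
Tcrg-V4: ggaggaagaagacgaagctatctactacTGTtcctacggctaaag
Trav11d: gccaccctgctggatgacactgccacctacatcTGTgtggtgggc
Trav12-2: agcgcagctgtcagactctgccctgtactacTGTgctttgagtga
The beta ends lie on the plus strand at chr6:41271837-41271881 (Trbv29), chr6:41163512-41163556 (Trbv17), chr6:41179004-41179048 (Trbv19), chr6:41188933-41188977 (Trbv20), chr6:41121788-41121832 (Trbv13-2) and chr6:41119320-41119364 (Trbv12-2). The gamma ends lie at chr13:19336573-19336617 on the minus strand (Trgv2) and chr13:19340410-19340454 (Tcrg-V1) and chr13:19185462-19185506 (Tcrg-V4) on the plus strand. The alpha ends lie on the plus strand at chr14:52824868-52824912 (Trav11d) and chr14:53616870-53616914 (Trav12-2). Trgv2 and Tcrg-V1 differ at 2 of these 45 bases and Trgv2 and Tcrg-V4 at 14. Trbv12-2 is shown as a beta segment that was not higher, at 0.226 ± 0.0495 CPM in Abcc4-/- and 0.257 ± 0.0186 CPM in WT (log2 fold change -0.19, SE 0.31, adjusted p = 0.735).

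Genes whose products work with the receptor were read from lists chosen with earlier results of these data known. In the counts for these lists, rose and fell mean called higher or lower by the edgeR test at an adjusted p below 0.05. Of all genes tested, 8.61% were called higher and 8.68% lower. Of 15 genes of the CD3 complex and proximal signalling, 8 rose and 0 fell, and the median of their log2 fold changes was 0.81. Their summed level was 312 to 325 CPM in Abcc4-/- and 300 to 309 CPM in WT. Most of that sum was Lcp2 (150 ± 0.517 CPM in Abcc4-/- and 162 ± 5.73 CPM in WT) and Fyn (59.8 ± 2.56 and 59.5 ± 2.61 CPM), named after their values were seen. The smallest p-values were those of Cd3e, a signalling chain of the receptor complex (4.21 ± 0.472 CPM in Abcc4-/- and 1.305 ± 0.221 CPM in WT), Zap70, the kinase that binds the phosphorylated chains (3.86 ± 0.207 and 1.73 ± 0.415 CPM), and Lck, the kinase that phosphorylates them (17.9 ± 2.47 and 10.1 ± 1.19 CPM, all in that order of genotypes). Of 10 tested genes of the pre-receptor and V(D)J recombination, 4 rose and 0 fell, led by Dntt, which adds bases at the junctions (42.7 ± 3.16 CPM in Abcc4-/- and 18.1 ± 0.732 CPM in WT), Rag2 and Rag1. Ptcra, the pre-receptor alpha chain, was too low to test at 0.0777 ± 0.00812 CPM in Abcc4-/- and 0.0688 ± 0.0462 CPM in WT.

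Among 16 T cell surface markers, 9 rose and 1 fell, with Cd6, Il2ra and Thy1 at the smallest p-values (log2 fold changes 0.86, 1.12 and 0.50). The marker that fell, named after its values were seen, was Ctla4, an inhibitory receptor (0.441 ± 0.0767 CPM in Abcc4-/- and 0.929 ± 0.238 CPM in WT, log2 fold change -1.08, adjusted p = 0.0132). Cd8a was at 6.50 ± 1.19 CPM in Abcc4-/- and 3.65 ± 0.773 CPM in WT (adjusted p = 0.0101), and Cd4 at 14.1 ± 2.35 CPM in Abcc4-/- and 13.9 ± 0.388 CPM in WT (adjusted p = 0.94); both were named after their values were seen. Among 16 T lineage transcription factors, 7 rose and 3 fell. Lef1 and Bcl11b rose by log2 fold changes of 1.39 and 1.02, and Runx3 fell by 0.41. The others that fell, named after their values were seen, were Zbtb16 and Id2 (log2 fold changes -0.65 and -0.18).

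Markers of other cell types moved as well. Of 15 NK and innate lymphoid markers 7 rose and 2 fell, with Klre1, Il2rb and Ncr1 at the smallest p-values (log2 fold changes 1.21, 1.03 and 1.04). The 2 that fell, named after their values were seen, were Gzmb, a cytotoxic granule protease (2.50 ± 0.0622 CPM in Abcc4-/- and 15.97 ± 7.23 CPM in WT, log2 fold change -2.67, adjusted p = 0.0128), and Kit, a growth factor receptor (log2 fold change -0.29, adjusted p = 0.0164). Over this list the median log2 fold change was 0.79, near the 0.81 of the CD3 list. The summed level of the NK and innate lymphoid list was 285 to 299 CPM in Abcc4-/- and 291 to 315 CPM in WT. Of 12 B lineage markers 8 rose and 0 fell, with the smallest p-values in Vpreb1, Igll1 and Blk (1.71, 1.61 and 0.54), with sums of 2285 to 2599 CPM in Abcc4-/- and 1581 to 1917 CPM in WT. Of 10 neutrophil markers 7 rose and 1 fell (Mpo, log2 fold change -0.25, named after its value was seen), with the smallest p-values in the granule genes Lcn2, Ltf and Ngp (0.94, 0.87 and 0.77) and sums of 38360 to 40960 CPM in Abcc4-/- and 21700 to 28270 CPM in WT. Of 12 megakaryocyte and platelet markers 1 rose (Ppbp, log2 fold change 0.56, named after its value was seen) and 8 fell, with the smallest p-values in Vwf, Pf4 and Itga2b (-1.25, -0.85 and -0.72) and sums of 198 to 237 CPM in Abcc4-/- and 286 to 343 CPM in WT. Itga2b, which encodes CD41, was at 96.1 ± 13.8 CPM in Abcc4-/- and 158 ± 17.3 CPM in WT (adjusted p = 0.0106).

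Of 7 plasmacytoid dendritic cell markers 1 rose (Ly6d) and 1 fell (Runx2), with sums of 1041 to 1180 CPM in Abcc4-/- and 1078 to 1121 CPM in WT. Of 7 erythroid markers 1 rose (Klf1) and 0 fell, with sums of 525 to 766 CPM in Abcc4-/- and 678 to 733 CPM in WT. No gene of these 6 lists was at 0 in all libraries. The part of these cell types in the receptor values was not tested.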

How the data were processed

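Expression was measured by RNA-seq in 6 libraries, 3 per genotype; the mRNA kit kept strand and reads were paired, per the labels' protocols. The authors used STAR 2.7 and RSEM 1.3.1 with the mm10 build, per the submitters' processing notes, and which annotation they used is not given here. They deposited unnormalized expected counts for each gene and, in another table, TPM, which the authors scaled to length and library. The 92 spike-in rows were left out. Sample groups came from the genotype labels and replicate numbers from the titles. Whether the samples are separate animals is unknown, and p-values then cover only sample-to-sample spread that may be technical.

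Expected counts were rounded to whole numbers. The test was edgeR's quasi-likelihood test with robust estimation (edgeR 4.0.16 in R 4.3.3), after TMM scaling and the default filter (0.164 CPM in 3 libraries and at least 15 summed counts), over 16493 genes. The script was checked on simulated counts. Alternatives were other scaling, other filters, DESeq2 1.42.0, limma 3.58.1 on log2 TPM with pseudocounts of 1 and 0.1 (fold changes are then on the log2(TPM + pseudocount) scale, and with a pseudocount of 1 they are smaller for low genes), the replicate block and each library left out. Chain totals are sums of CPM, and segments named dv count with alpha. The mm10 and GRCm38 coordinates are those of 1 assembly; positions and reference sequences came from GENCODE vM21 (GRCm38), which held all 226 receptor rows under the same versioned identifiers. Intervals are exact Clopper-Pearson intervals at 95%, and like the floor of 3 counts they hold only the error of counting.

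The genes described and the lists were chosen with earlier results of these data known. Named were all constant genes with a count, all diversity segments, the 3 variable segments of each chain with the highest mean CPM, every gene called, the rows nearest the threshold and, per list, genes with the smallest p-values; others are marked in the text. A few items, among them 1 marker list, are not reported here.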

Additional observations from a re-analysis of the deposited data

How the results depend on the processing

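Of the 8 calls among receptor genes, Trbc1, Trbc2, Trdc, Tcrg-C2 and Trgv2 kept theirs in all 14 alternatives of the gene test, and no change of direction occurred among the 16 genes tested. Trgv2 was below the filter's level in every WT library, so its entry depended on the Abcc4-/- libraries. Most alternatives, among them each library left out, kept the genes that passed the filter with all libraries and did not repeat that entry. The number called higher was 15 with every gene of at least 1 summed count and 13 with every gene of at least 10, where more receptor genes enter the test. It was 7 with DESeq2. With each library left out it ranged from 5 to 10, and the number of all genes called ranged from 1750 to 2419, against 2852 with all libraries. Tcrg-C1 was not called on the log2(TPM + 1) or log2(TPM + 0.1) scale (adjusted p = 0.0513 and 0.063), and Trbv3 was (0.041 and 0.0468). Without WT replicate 2, Trbv12-1 was called (0.0445), at a log2 fold change of 2.94 against 1.12 with all libraries.

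The gamma ratio was 4.39 over variable segments alone. The delta ratio was 1.22 on summed TPM and 1.07 over the CPM of variable segments alone. Of the delta TPM, variable segments held 2.11 of 3.01 in Abcc4-/- and 2.09 of 2.46 in WT (means). Why the variable segments differed less than Trdc was not tested. With each library left out, the ratios ranged from 1.91 to 2.49 for alpha, 1.84 to 2.35 for beta, 1.995 to 2.82 for gamma, 2.06 to 2.41 for delta and 1.92 to 2.43 for all chains together. Receptor genes with a count averaged 87.9 at equal depth in Abcc4-/-, against 100.7 as counted. Totals of joining segments alone gave no value, since all their rows were at 0.

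Samples with the same replicate number did not deviate together (correlations of -0.0469, -0.0261 and -0.0149 between their deviations), so the numbers were not taken as pairs. With the replicate number as a block, 8 receptor genes were called higher and 0 lower, and 3157 genes in all. Depth limits single segments: 78 of 131 receptor genes had under 10 summed counts.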
